A study of Homo sapiens with 27 samples.

Results

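The immunoglobulin heavy chain locus on chromosome 14 was examined in RNA sequencing data from REH, an established cell line of B-cell precursor acute lymphoblastic leukaemia that carries the ETV6/RUNX1 fusion. The genes were taken by name and position: every variable (V), diversity (D) and joining (J) segment of the heavy locus and every heavy chain constant gene, pseudogenes included. The count tables held 168 such genes among 60619 (173 were annotated), made up of 11 constant genes, 9 J, 27 D and 121 V segments, and 72 of the V segments were annotated as pseudogenes. All lie on the minus strand between bases 105583731 and 106879812 of chromosome 14 (hg38). The rule that picks them uses names and positions and no measured value, although this locus was taken up with earlier results of these data known.

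A heavy chain gene is assembled in developing B cells. The RAG1 and RAG2 recombinase joins a D to a J segment and then a V segment to that DJ unit, cutting at recombination signals made of a heptamer, a spacer and a nonamer, and the DNA between the joined segments is usually lost from that chromosome. The assembled V region is spliced to IGHM, the constant region of the mu chain, and by longer transcripts to IGHD, that of the delta chain; the other constant genes are used after class switching in mature B cells. Unrearranged V and constant genes can also be transcribed, giving germline transcripts that encode no complete chain.

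The series held 27 samples in 10 groups. The controls were cells in medium alone (medium, n = 2) and cells given a non-targeting GapmeR (NTC, n = 3). The other 8 groups received 1 of a pair of GapmeRs against 1 of 4 long non-coding RNAs: lnc-NKX2-3-1 (GapmeR1 n = 2, GapmeR2 n = 3), lnc-RTN4R-1 (n = 3 and 3), lnc-TIMM21-5 (n = 3 and 3) and lnc-ASTN1-1 (n = 3 and 2). A GapmeR is an antisense oligonucleotide with locked nucleic acid ends that directs RNase H to its target; it was given at 10 µM for 72 h without transfection, and every sample, controls included, was REH.

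Each sample had 14627110 to 22750945 reads assigned to genes. Reads were found for 10 of 11 B-precursor markers, with a summed level of 4708 to 6127 CPM. CPM are counts per 1000000 reads of a library size scaled by TMM, which normalises libraries to each other. VPREB1, a surrogate light chain gene, was nevertheless at 0 in every sample, and CD34 was low, at 0.126 to 2.83 CPM. The remaining 9 had at least 1 CPM in every sample. Summed markers of mature B cells reached 6.17 to 27.3 CPM (CR2 at 0), of plasma cells 160 to 241, of T cells 7.84 to 24.0 (CD3D and CD3G at 0) and of myeloid cells 82.5 to 449 CPM (S100A8 at 0). Most of the myeloid sum was MPO, at 79.4 to 445 CPM, and most of the mature B sum was MS4A1, at 5.39 to 26.4 CPM. MZB1 and SDC1 made up most of the plasma cell sum, at 115.5 to 203.2 and 32 to 45.5 CPM. JCHAIN stayed at no more than 0.158 CPM and TNFRSF17 at no more than 1.70. Nearly all of the T-cell sum was TRAC, at 7.62 to 23.9 CPM. Each lncRNA was lower in all samples of its own GapmeRs than in all 5 controls: 0 to 0.183 against 0.326 to 1.26 CPM for lnc-NKX2-3-1, 3.4 to 6.44 against 18.3 to 24.4 for lnc-RTN4R-1, 0.0452 to 0.503 against 1.08 to 2.19 for lnc-TIMM21-5, and 9.76 to 14.6 against 23.3 to 27 for lnc-ASTN1-1. The lnc-NKX2-3-1 values rest on 0 to 23 reads a sample. In such bulk samples fewer cells of a type and less RNA per cell cannot be told apart.

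The sequences just before the V segments that carried most V reads are shown first, because the octamer ATGCAAAT, bound by the POU2F factors, is the best known element of V promoters. Each line gives the 80 bases before the annotated start in hg38, 5′ to 3′ on the minus strand, with the octamer in capitals. The line for IGHV3-13, the nearest V segment on the J side of IGHV3-15 that is not a pseudogene, is given because it had no read in any sample.
IGHV3-15, chr14:106154164-106154243: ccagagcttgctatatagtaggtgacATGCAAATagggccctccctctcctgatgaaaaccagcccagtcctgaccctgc
IGHV3-43, chr14:106470801-106470880: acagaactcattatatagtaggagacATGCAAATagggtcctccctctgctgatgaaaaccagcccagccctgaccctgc
IGHV1-18, chr14:106185395-106185474: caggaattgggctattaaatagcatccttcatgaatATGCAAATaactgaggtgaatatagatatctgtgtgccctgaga
IGHV5-78, chr14:106851418-106851497: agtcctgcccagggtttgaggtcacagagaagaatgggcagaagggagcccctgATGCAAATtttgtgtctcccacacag
IGHV3-13, chr14:106130073-106130152: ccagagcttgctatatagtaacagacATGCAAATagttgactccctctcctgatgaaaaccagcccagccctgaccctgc

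The octamer began 54 bases before the annotated start in IGHV3-15, IGHV3-43 and IGHV3-13, 44 bases before it in IGHV1-18 and 26 bases before it in IGHV5-78. The silent IGHV3-13 thus carried the same 8 letters at the same distance as IGHV3-15. IGHV5-78 had another octamer 241 bases before its annotated start, outside the bases shown. It is annotated as a single exon of 295 bases, whereas the other V segments shown have a gap between exons. Distances from its start are therefore not comparable with theirs. Whether any of these octamers acts in a promoter was not tested. The recombination signal that the recombinase reads follows the end of a V segment, and the 39 bases that hold it are shown with heptamer and nonamer in capitals around a spacer of 23 bases. For IGHV5-78, which had no CACAGTG heptamer within 13 bases of its end, the 39 bases after its end are shown in lower case.
IGHV3-15, chr14:106153583-106153621: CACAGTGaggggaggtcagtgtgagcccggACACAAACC
IGHV3-43, chr14:106470224-106470262: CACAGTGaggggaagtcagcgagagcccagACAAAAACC
IGHV1-18, chr14:106184860-106184898: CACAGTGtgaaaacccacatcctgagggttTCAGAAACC
IGHV3-13, chr14:106129501-106129539: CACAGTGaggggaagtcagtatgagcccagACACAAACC
IGHV5-78, chr14:106851084-106851122: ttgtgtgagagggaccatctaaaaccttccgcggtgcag

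Few of the segments had counted reads in REH. In all, 115 of the 168 genes had no read in any sample, 42 never passed 9 reads in a sample (24 of these never passed 1), 7 peaked between 10 and 99 reads and 4 reached at least 100. Those 4 genes, IGHM, IGHV3-15, IGHD and IGHV5-78, held nearly all of the 417741 reads of the locus. IGHM alone held 91.4% of them, and between 90.2 and 92.4% in every sample. IGHV3-15 held 3.19% (2.65 to 4.09%), IGHD 2.74% (1.70 to 3.69%) and the pseudogene IGHV5-78 1.70% (1.23 to 2.15%). IGHV3-43 followed with 0.317%, IGHV1-18 with 0.272% and IGHG3 with 0.0663%. A single sample had reads in 16 to 28 of the 168 genes.

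Among the constant genes, IGHM (ENSG00000211899, bases 105851705 to 105856218) had 9368 to 19140 reads a sample, 381796 in all. IGHD (ENSG00000211898, bases 105836765 to 105845677), which lies downstream of IGHM in the direction of transcription, had 305 to 551 reads a sample and 11431 in all. The switched constant genes were at or near 0. IGHA2 and IGHE had no read in 27 samples, IGHA1 and the pseudogene IGHEP1 had 1 each, IGHG2 had 3, IGHG1 and the pseudogene IGHGP 8 each, and IGHG4 had 10, at most 2 in a sample. IGHG3 (bases 105764503 to 105771405) was the exception, with 2 to 18 reads a sample and 277 in all. No read in 512518412 allows a level of up to 0.00585 CPM, by the convention of 3 counts, and this limit covers counting error only. The gamma and alpha genes are close copies of each other, and only 34.3% of 32-base windows in IGHG3 exons occur once in the genome, against 100% in IGHM and IGHD. Reads that STAR placed at several loci were not counted, so the values of the gamma and alpha genes are uncertain.

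None of the 9 J and 27 D segments had a read in any sample. They are short, at 46 to 61 exon bases for J and 11 to 37 for D, so that a read from a joined transcript would lie mostly outside them.

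The V reads were concentrated in a few segments that lie far apart. IGHV3-15 (ENSG00000211943, bases 106153624 to 106154163) had 272 to 811 reads a sample and 13319 in all. IGHV5-78 (ENSG00000211978, bases 106851123 to 106851417), a pseudogene near the far end of the V array, had 150 to 397 reads a sample and 7100 in all. IGHV3-43 (bases 106470264 to 106470800) had 29 to 74 reads and IGHV1-18 (bases 106184901 to 106185394) had 20 to 75 reads a sample. The only other V segments with 10 reads in any sample were the pseudogene IGHV1-17 with 211 reads in all, IGHV8-51-1 with 204, IGHV5-51 with 198 and the pseudogene IGHV3-42 with 165. In 45.9% of the 32-base windows of IGHV3-15 the sequence occurs once in the genome, against 55.2% for IGHV1-18, 83.9% for IGHV3-43 and 95.5% for IGHV5-78, so the level of IGHV3-15 is the least certain of these 4.

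Between the J cluster and IGHV3-15 the locus was almost silent. That stretch of 288 kb holds 50 annotated genes, 46 of them segments of the heavy locus, and these had 1 read in all 27 libraries together, in IGHV3-6. The only other gene with reads there was an unnamed processed pseudogene, ENSG00000225200, with 608, while ADAM6 and FAM30A were at 0. For the D segments in it, the limit given above for short segments holds. Of the 20 V segments in the stretch, 19 had no read. Of the 100 V segments beyond IGHV3-15, 42 had at least 1 read and together they had 10886. Copies elsewhere in the genome were about as common on both sides: a median of 69.4% of windows occurred once in the genome for the 20 near segments (18.9 to 100%) and 73.9% for the far segments. Among the far segments this median was 73.5% for those with a read and 73.9% for those without.

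**Figure D1:**
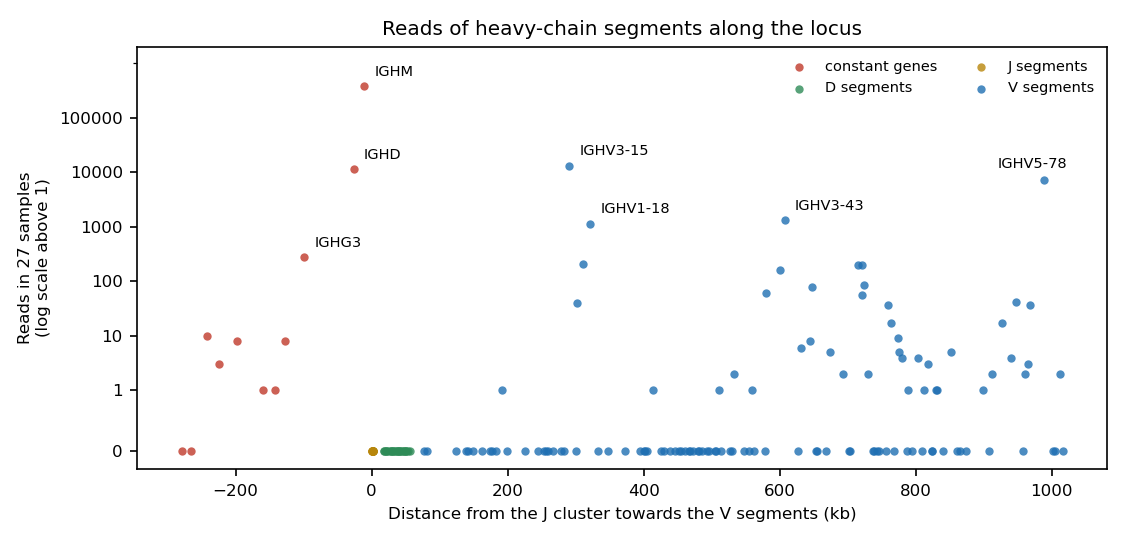
Reads of each heavy locus gene summed over 27 samples (vertical axis, log scale above 1) against its distance in kb from the J cluster (horizontal axis), coloured by class of segment. IGHM stands at 381796 reads and the next 3 genes between 7100 and 13319, while the V segments on the J side of IGHV3-15 hold 1 read in all.

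The octamer was common before V segments whether or not they had reads. ATGCAAAT stood, on either strand, between 250 bases before and 50 after the annotated start of 60 of 121 V segments (49.6%), against 623 of 35116 RefSeq promoters of the same length (1.77%). It was present in 27 of the 44 V segments with a read (61.4%) and in 33 of the 77 without (42.9%). In the near-silent stretch between the J cluster and IGHV3-15 it was present in 11 of 20 (55%). It was more common in V segments not annotated as pseudogenes, at 43 of 49 (87.8%), than in V pseudogenes, at 17 of 72 (23.6%). The heptamer CACAGTG stood within 13 bases of the end of 55 of 121 V segments (45.5%), 25 of the 44 with a read (56.8%), 30 of the 77 without (39%) and 13 of the 20 in the near-silent stretch (65%). A match is a match of letters only.

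Levels of different genes were compared per kb of exon. IGHM reached 396 CPM per kb on average over the 27 samples, IGHV3-15 58.9, IGHV5-78 46.6 and IGHD 13.3, and the next V genes were IGHV3-43 with 5.92 and IGHV1-18 with 5.36. IGHM was above IGHV3-15, IGHV5-78 above IGHD and IGHD above IGHV3-43 in all 27 samples. IGHV3-15 was above IGHV5-78 in 25 of 27 samples, although their ranges overlapped (43.1 to 85.1 and 29.5 to 61.9 CPM per kb). IGHV3-43 and IGHV1-18, the former higher in 20 of 27 samples, did not differ beyond their spread (4.63 to 8.13 and 3.38 to 8.38 CPM per kb). Beside IGHV5-78, the microRNA gene MIR5195, whose annotated end lies 123 bases away, reached a mean of 7.37 CPM. Over its 115 exon bases this is 64.1 CPM per kb, above the mean of IGHV5-78.

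Per sample, IGHM ranged from 647 to 877 CPM, IGHV3-15 from 18.8 to 37.2, IGHD from 15.8 to 28.5 and IGHV5-78 from 8.70 to 18.3 CPM. The coefficient of variation was 8.28% for IGHM, 14.7% for IGHD, 16.2% for IGHV5-78 and 17.7% for IGHV3-15, so IGHM varied least of these 4 in proportion to its level.

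**Figure D2:**
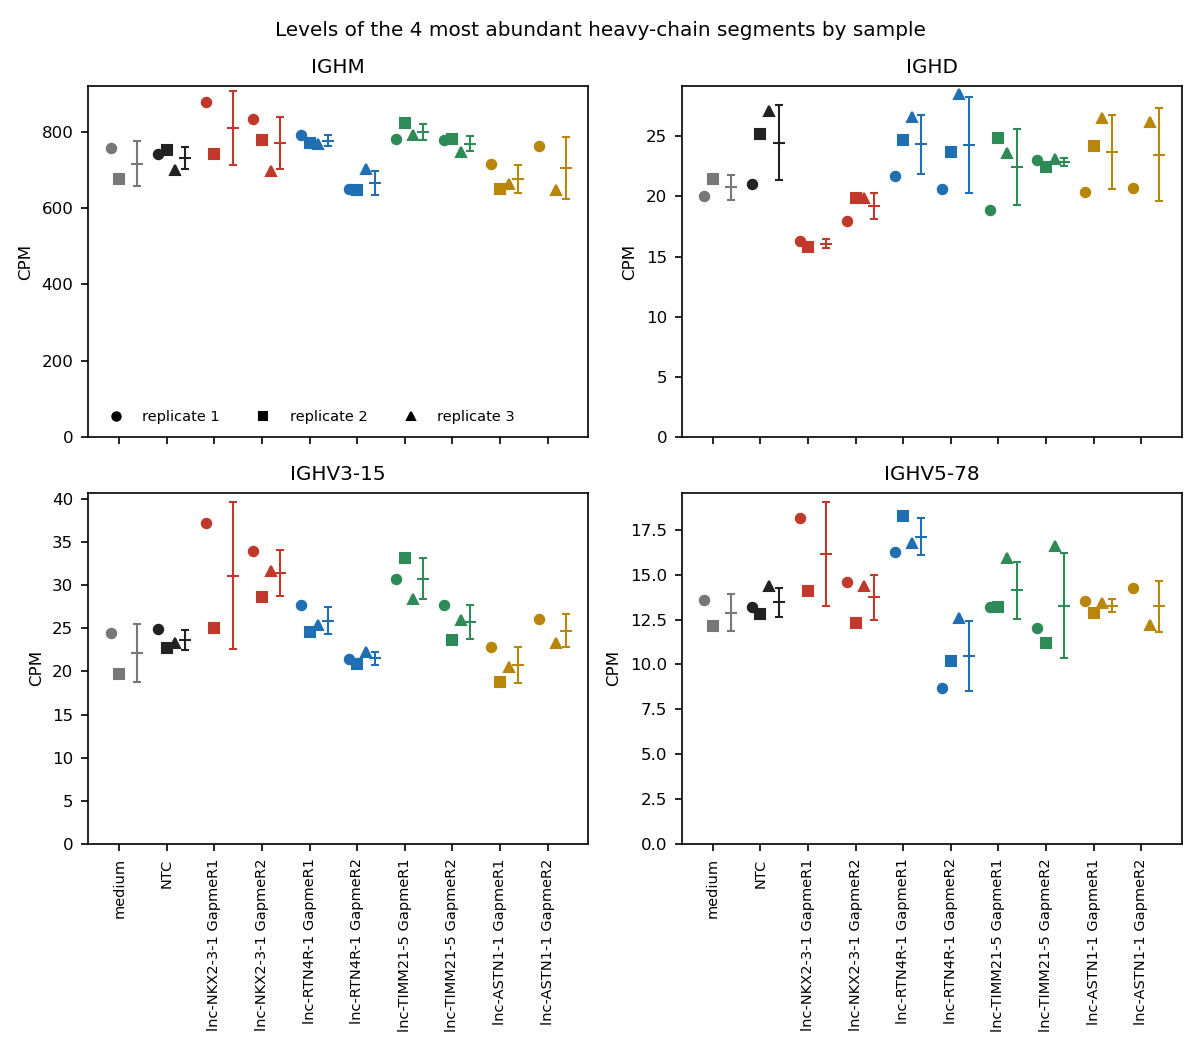
Level in CPM (vertical axis, 1 panel a gene) of IGHM, IGHD, IGHV3-15 and IGHV5-78 in each of the 10 groups (horizontal axis), where each point is a sample, its shape gives the replicate number, and the bar gives mean ± SD. IGHV3-15 is high and IGHD low in both lnc-NKX2-3-1 groups, and IGHV5-78 is highest in lnc-RTN4R-1 GapmeR1 and lowest in GapmeR2.

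Whether any segment differed among the 10 groups was asked with 1 quasi-likelihood F test per gene in edgeR, adjusted over all 16268 genes tested. Of the 10 heavy locus genes with enough reads, IGHV3-15 (F = 6.89, adjusted p = 0.00127) and IGHD (F = 3.44, adjusted p = 0.0481) passed, where 16.1% of all genes tested did. IGHV5-78 had an adjusted p of 0.0520, IGHG3 of 0.0533 and IGHM of 0.0883, and IGHV5-51, IGHV3-43 and IGHV1-18 had 0.254, 0.438 and 0.787. With the replicate number as a block, 5 passed, namely IGHV3-15 (8.26e-09), IGHD (3.04e-05), IGHM (1.81e-04), IGHV5-78 (2.16e-04) and IGHG3 (0.0133), where 48.6% of all genes did. IGHV3-15 passed in all 27 fits that left out 1 sample (8.42e-05 to 0.00391). IGHD lost its call in 17 of these 27 fits, with an adjusted p of 0.209 and 0.249 without replicates 1 and 2 of lnc-NKX2-3-1 GapmeR1 and 0.0566 to 0.0904 in the others. Those others left out a library of medium (replicates 1 and 2), NTC (2 and 3), lnc-NKX2-3-1 GapmeR2 (1, 2 and 3), lnc-RTN4R-1 GapmeR1 (2 and 3) or GapmeR2 (2), lnc-TIMM21-5 GapmeR1 (3) or GapmeR2 (1, 2 and 3) or lnc-ASTN1-1 GapmeR1 (2). IGHG3 (2 to 18 reads a sample) and IGHV5-51 (2 to 15) lie near the minimum of 10 reads that a gene needs to be tested. Where one of them was tested, it could have entered through the group in which it was high, so its values are a description and its direction there is set in part by the filter.

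The comparisons with the controls below share the same 5 control samples. In them IGHV3-15 lay at 24.5 and 19.7 CPM in medium and 24.9, 22.7 and 23.3 in NTC. IGHD lay at 20.0 and 21.5 in medium and 21.1, 25.2 and 27.1 CPM in NTC. IGHV5-78 lay at 13.6 and 12.2 in medium and 13.2, 12.8 and 14.4 CPM in NTC. Medium and NTC overlapped for all 3 genes, and none of the 6 heavy locus genes tested between them passed, by edgeR, by DESeq2 or at an unadjusted p under 0.05, where 0% of all genes passed by either tool and 4.44% were under 0.05 unadjusted.

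The clearest differences were seen with the GapmeRs against lnc-NKX2-3-1, where IGHV3-15 was higher and IGHD lower than in the controls. IGHV3-15 was at 37.2 and 25.1 CPM with GapmeR1 and at 34.0, 28.7 and 31.6 CPM with GapmeR2. All 5 values were above all 5 controls. IGHD was at 16.3 and 15.8 CPM with GapmeR1 and at 17.9, 19.8 and 19.9 CPM with GapmeR2. All 5 values were below all 5 controls. Both separations rest on the TMM scaling of library sizes. For IGHV3-15, GapmeR1 replicate 2 had 484 of 19969434 assigned reads, and NTC replicate 1 had 440 of 17770849. For IGHD, GapmeR2 replicate 3 had 337 of 16092002, and medium replicate 1 had 372 of 18846647. Before scaling, both pairs stand in the reverse order. Of 7 heavy locus genes tested, IGHV3-15 and IGHD did not overlap after scaling, where 1.32% of all genes did not (0.478% higher and 0.842% lower). The study lists both genes for this lncRNA from these same samples, so their direction here is not independent evidence.

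Within 1 replicate number the order was the same. The methods state that the triplicates were run on different days, and the numbers are taken here to stand for those days, which the labels do not say. In replicate 1 IGHV3-15 was at 37.2 and 34.0 CPM with the 2 GapmeRs against 24.5 and 24.9 in medium and NTC, in replicate 2 at 25.1 and 28.7 against 19.7 and 22.7, and in replicate 3 at 31.6 (GapmeR2) against 23.3 (NTC). IGHD was at 16.3 and 17.9 against 20.0 and 21.1 CPM in replicate 1, at 15.8 and 19.8 against 21.5 and 25.2 in replicate 2, and at 19.9 against 27.1 in replicate 3. The control libraries of IGHD also differed by replicate number, as these values show.

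For GapmeR1 against the controls 2 of 7 heavy locus genes passed the test, where 17.6% of all genes passed (7.41% higher and 10.2% lower). IGHV3-15 rose to 31.1 ± 8.54 CPM (SD, n = 2) from 23 ± 2.05 (n = 5), a log2 fold change of 0.44 (SE 0.13, adjusted p = 0.0365). This call depended on single libraries. Without GapmeR1 replicate 1 the log2 fold change was 0.13 (adjusted p = 0.636), and the adjusted p was 0.050 without NTC replicate 1, 0.0520 without medium replicate 2 and 0.0739 without NTC replicate 2. IGHD fell to 16.1 ± 0.359 CPM (n = 2) from 23 ± 3.04 (n = 5), a log2 fold change of -0.51 (SE 0.13, adjusted p = 0.0147). Without GapmeR1 replicate 1 or 2 its adjusted p was 0.0994 or 0.136, with the spread of the lone library taken from the controls. The replicate block called 4 of the 7, where 36.4% of all genes were called, adding IGHM (log2 fold change 0.15, adjusted p = 0.0127) and IGHV5-78 (0.33, adjusted p = 0.00728). In this group the summed myeloid markers were at 164 to 197 CPM, above the 86.2 to 133 of the controls, and the mature B markers at 6.17 to 8.25 against 7.05 to 12. Their part in the result was not tested.

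With GapmeR2 none of 7 heavy locus genes passed in edgeR, where 0% of all genes did. DESeq2 called 1 (0.0595% of all genes). IGHV3-15 and IGHD had an unadjusted p under 0.05, as did 4.07% of all genes. IGHG3 did too, with 13 to 17 reads against 4 to 10 in the controls. Its direction was set in part by the filter, so it is not counted. IGHV3-15 was at 31.4 ± 2.67 CPM (n = 3), a log2 fold change of 0.45 (SE 0.093, adjusted p = 0.701), and IGHD at 19.2 ± 1.11 CPM (n = 3), a log2 fold change of -0.26 (SE 0.11, adjusted p = 0.913). With the replicate block both passed (IGHV3-15 6.77e-06, IGHD 0.0242), where 2.72% of all genes did. The 5 GapmeR samples pooled gave 0 calls of 7, where 0% of all genes passed, and none by DESeq2 (0.0673% of all genes). IGHV3-15 and IGHD had an unadjusted p under 0.05, where 7.43% of all genes did. IGHG3 did as well and is again not counted. The pooled log2 fold changes were 0.45 (SE 0.11, adjusted p = 0.627) for IGHV3-15 and -0.36 (SE 0.10, adjusted p = 0.661) for IGHD. That of IGHG3, which had few reads, was 1.00 (SE 0.31, adjusted p = 0.661).

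Set directly against each other, the 2 GapmeRs gave no call among 9 heavy locus genes in edgeR, none by DESeq2 and none at an unadjusted p under 0.05, where 13% of all genes passed in edgeR, 12.9% in DESeq2 and 28.9% unadjusted. The difference in IGHV3-15 was -0.0099 on the log2 scale (SE 0.15), and that in IGHD was -0.25 (SE 0.11, adjusted p = 0.175). Both IGHD samples of GapmeR1 were below all 3 of GapmeR2, as were 24.9% of all genes, and IGHV1-18 and IGHV3-43 lay above without overlap, as did 22.1%. With the replicate block IGHD (-0.22, adjusted p = 0.0333) and IGHV5-78 (0.27, adjusted p = 0.0155) passed, where 41.8% of all genes did.

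IGHV3-15 was also high with GapmeR1 against lnc-TIMM21-5, at 30.8, 33.2 and 28.4 CPM, each above all 5 controls. GapmeR2 gave 27.7, 23.7 and 25.9 CPM, which overlapped the controls. The main test passed for none of 7 heavy locus genes with GapmeR1, where 0.079% of all genes passed, and IGHV3-15 had a log2 fold change of 0.42 (SE 0.090, adjusted p = 0.260). It was the only one with an unadjusted p under 0.05 (5.07% of all genes), and DESeq2 called 1 of the 7 (0.257% of all genes). With the replicate block IGHV3-15 (0.43, adjusted p = 2.00e-04) and IGHM (0.15, adjusted p = 0.0459) passed, where 2.79% of all genes did. IGHM, at 781, 822 and 791 CPM, likewise lay above all controls, as did 1.84% of all genes. IGHG3 did so too, with 12, 12 and 14 reads against 4 to 10 in the controls, but it entered the test through that group and is not counted. GapmeR2 had no call of 6 (background 0.0593%), no unadjusted p under 0.05 (2.51% of all genes) and none by DESeq2 (0.112%). The 6 samples pooled had no call of 7 (background 0.00665%), 2 unadjusted p values under 0.05 (5.38% of all genes) and none by DESeq2 (0.0998%), and under the replicate block 1, IGHV3-15 (0.30, SE 0.073, adjusted p = 0.0382), where 1.32% of all genes were called. The GapmeRs compared directly gave 0 of 9 (background 0.0784%) and none by DESeq2 (0.144%). IGHV3-15 had an unadjusted p under 0.05, as did 1.63% of all genes. So did IGHG3, which is not counted for the reason given. IGHV3-15 and IGHM were higher in every GapmeR1 than in every GapmeR2 sample, as were 3.19% of all genes.

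IGHV5-78 separated the 2 GapmeRs against lnc-RTN4R-1. Its level was 16.3, 18.3 and 16.8 CPM with GapmeR1 and 8.70, 10.2 and 12.6 CPM with GapmeR2. Every GapmeR1 sample was above every GapmeR2 sample, as was the case for 13.4% of all genes, and above every control. IGHM (767 to 792 against 647 to 703 CPM) and IGHV3-15 (24.6 to 27.7 against 20.8 to 22.3 CPM) were also higher in every GapmeR1 than in every GapmeR2 sample. IGHV5-78 was the 1 called gene of 8 heavy locus genes, where 5.92% of all genes passed. It was at 17.1 ± 1.03 CPM (n = 3) against 10.5 ± 1.95 (n = 3), a log2 difference of 0.71 (SE 0.14, adjusted p = 0.0169). The adjusted p was 0.0583, 0.0691, 0.0598 and 0.0733 without GapmeR1 replicates 1 and 2 and GapmeR2 replicates 1 and 2 in turn, so that 1 library decided the call. The replicate block called 4 of 8, where 30.9% of all genes were called: IGHV5-78 (0.71, adjusted p = 2.93e-06), IGHM (0.22, adjusted p = 0.00016), IGHV3-15 (0.27, adjusted p = 0.00419) and IGHV5-51 (1.59, adjusted p = 0.0108), all higher with GapmeR1. IGHV5-51 had 11, 12 and 15 reads with GapmeR1 and 2, 4 and 5 with GapmeR2, so it was tested only because it was high with GapmeR1, and its direction was fixed by the filter.

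MIR5195 differed in the same direction as IGHV5-78. It lay at 8.24, 9.35 and 9.64 CPM with GapmeR1 and at 4.81, 5.61 and 5.54 with GapmeR2, against 7.59 and 5.75 in medium and 7.30, 5.85 and 7.11 in NTC. The log2 difference between the GapmeRs was 0.77 (SE 0.13, adjusted p = 0.00949). Both lie on the minus strand a short way apart, and whether their reads come from 1 transcript was not tested.

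**Figure D3:**
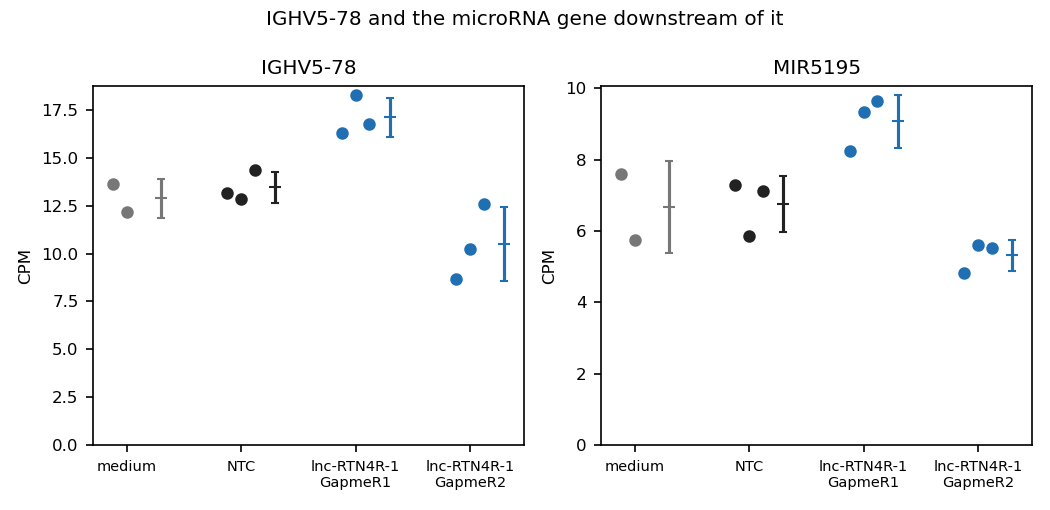
Level in CPM (vertical axis) of IGHV5-78 and MIR5195 in medium, NTC and the 2 lnc-RTN4R-1 GapmeR groups (horizontal axis), where points are samples and bars give mean ± SD. Both genes are highest with GapmeR1 (17.1 and 9.08 CPM on average) and lowest with GapmeR2 (10.5 and 5.32 CPM).

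Against the controls IGHV5-78 did not pass with either lnc-RTN4R-1 GapmeR. GapmeR1 had no call of 9 heavy locus genes, where 1.59% of all genes passed, and IGHV5-78 had a log2 fold change of 0.37 (SE 0.088, adjusted p = 0.0620; 0.00136 with the replicate block, where 9.39% passed). IGHV5-78 had an unadjusted p under 0.05 (9.56% of all genes), and DESeq2 made 1 call (2.46% of all genes). IGHM and IGHV5-78 were above all controls, where 4% of all genes were. IGHV5-51, with 2 to 7 reads in the controls, also had an unadjusted p under 0.05. It again entered through GapmeR1 and is not counted. GapmeR2 had no call of 7, where 6.62% passed, and none by DESeq2 (8.58%). There IGHV5-78 had a log2 fold change of -0.33 (SE 0.12, adjusted p = 0.136). With the replicate block its adjusted p was 0.00579, where 22.4% passed. Its unadjusted p was under 0.05, as for 20.7% of all genes. That of IGHG3 was too, with 10 to 16 reads against 4 to 10 in the controls, and it is not counted. The pooled samples, in which the 2 directions meet, had no call of 7 (background 0.476%), no unadjusted p under 0.05 (10.6% of all genes) and none by DESeq2 (1.7%). The summed mature B markers, mostly MS4A1, were at 20.8 to 27.3 CPM with GapmeR1, 11.4 to 18.6 with GapmeR2 and 7.05 to 12 in the controls. The myeloid sum, mostly MPO, was at 82.5 to 120, 294 to 449 and 86.2 to 133 CPM in the same order. Their part in the IGHV5-78 difference was not tested.

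With the GapmeRs against lnc-ASTN1-1 no heavy locus gene was called: 0 of 6 with GapmeR1 (background 0.718%), 0 of 7 with GapmeR2 (0.013%), 0 of 6 pooled (0.0136%) and 0 of 7 between the GapmeRs (0.146%). DESeq2 called none either (0.0261 to 1.33% of all genes), and the only unadjusted p under 0.05 was for IGHG3 between the GapmeRs (2 to 6.84% of all genes). IGHV3-15 was at 22.9, 18.8 and 20.5 CPM with GapmeR1 and 26.1 and 23.4 with GapmeR2, a range that spans the controls. Every GapmeR1 sample was nevertheless below every GapmeR2 sample for IGHV3-15 and IGHV3-43, as for 8.73% of all genes, and for IGHG3, which had 2 to 8 reads with GapmeR1 and 12 and 14 with GapmeR2. The direction of IGHG3 there was set in part by the filter, so it is not counted. The log2 fold changes of GapmeR1 were -0.15 (SE 0.098) for IGHV3-15, 0.045 (SE 0.12) for IGHD and 0.0066 (SE 0.092) for IGHV5-78.

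**Figure D4:**
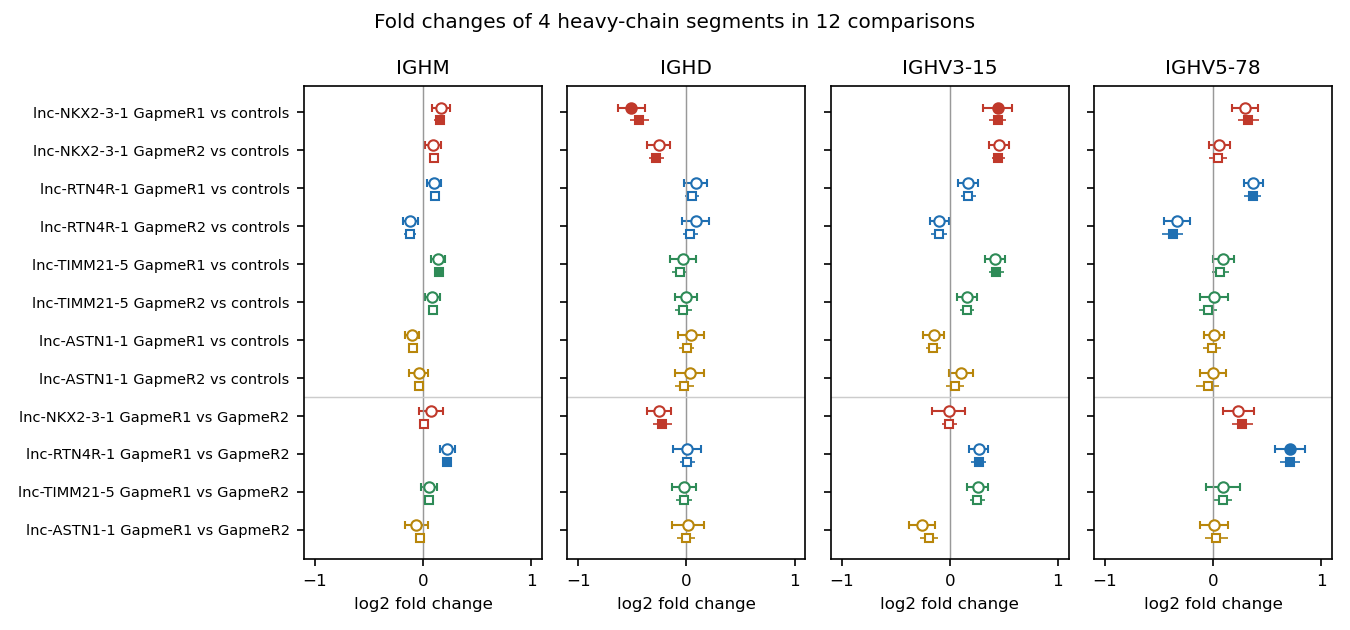
Log2 fold change with its SE (horizontal axis, 1 panel a gene) of IGHM, IGHD, IGHV3-15 and IGHV5-78 in each GapmeR against the 5 controls and between the GapmeRs of each lncRNA (vertical axis, 1 comparison a line), where circles are fits without and squares fits with the replicate block and filled symbols have an adjusted p under the threshold. The filled circles are IGHV3-15 (0.44) and IGHD (-0.51) with lnc-NKX2-3-1 GapmeR1 and IGHV5-78 (0.71) between the lnc-RTN4R-1 GapmeRs.

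The same genes were also set against IGHM, the most abundant transcript of the locus. For each 1000 reads of IGHM, IGHV3-15 had 31.8 ± 1.96 in the controls (n = 5), 38.1 ± 6.04 with lnc-NKX2-3-1 GapmeR1 (n = 2), 41.0 ± 4.22 with its GapmeR2 (n = 3) and 38.6 ± 2.35 with lnc-TIMM21-5 GapmeR1 (n = 3). All samples of these 3 GapmeRs were above the highest control (33.6), as were those of lnc-ASTN1-1 GapmeR2 (34.3 to 36.1, n = 2). IGHD had 31.8 ± 4.79 in the controls, 20.0 ± 1.92 with lnc-NKX2-3-1 GapmeR1 and 25.2 ± 3.48 with its GapmeR2. On this measure IGHD with GapmeR2 overlapped the controls (up to 28.4 against a lowest control of 26.4), while GapmeR1 did not (up to 21.3). IGHV5-78 had 18.3 ± 1.33 in the controls, 22.1 ± 1.58 with lnc-RTN4R-1 GapmeR1 and 15.7 ± 2.25 with its GapmeR2. Its lowest GapmeR1 sample (20.55) no longer lay above the highest control (20.56), but stayed above the highest GapmeR2 sample (17.9). These ratios are given as values with no test.

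No GapmeR matched the heavy locus. The 9 oligonucleotides of the study had no full match on either strand, and the longest run complementary to a tested heavy locus gene was 7 to 9 bases. Those of the groups in which a heavy locus gene stood apart are shown in lower case, because the sequence is what differs within a pair.
lnc-NKX2-3-1 GapmeR1: tgctctgtgcggattg
lnc-NKX2-3-1 GapmeR2: ctgatttttagtagtg
lnc-RTN4R-1 GapmeR1: gcattcatgggttaag
lnc-RTN4R-1 GapmeR2: tgctgagacatctagg
lnc-TIMM21-5 GapmeR1: aattttgcatttggta

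Other genes of the pathway were taken as lists, chosen with earlier results of these data known. Their shares are therefore not independent evidence about the lists. Of 36 tested factors and enzymes that act on the heavy locus, 14 passed the 10-group test (38.9%, against 16.1% of all genes), among them SPIB, an ETS factor of B cells (2.14e-06), IRF4 (1.19e-05), the cohesin loader NIPBL (1.42e-05), PRDM1 (3.08e-04) and DNTT, which adds nucleotides at the joins (0.00180). With lnc-NKX2-3-1 GapmeR1 11 of 36 passed (30.6%, against 17.6% of all genes), 9 higher and 2 lower, with a median log2 fold change of 0.14 against 0.0037 for all genes. Among these 11, IRF4 rose by 0.97 (SE 0.090, adjusted p = 9.32e-06), POU2F2 by 0.80 (SE 0.16, adjusted p = 0.00437) and RAG1 by 0.40 (SE 0.090, adjusted p = 0.00785), while EBF1 fell by 0.41 (SE 0.079, adjusted p = 0.00292) on the log2 scale. Their part in the heavy locus differences was not tested. With GapmeR2 against the same lncRNA none of the 36 passed, as none of all genes tested did (0%), so this sets the list apart in no way. Between the lnc-RTN4R-1 GapmeRs 6 of 36 passed (16.7%, against 5.92%), 5 of them higher with GapmeR1.

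Of 11 tested genes of the pre-B receptor and the light chain constant regions, 8 passed the 10-group test (72.7%, against 16.1% of all genes). IGLC3 (1.57e-10), IGLC6 (8.63e-09) and IGLC7 (2.17e-04) of the lambda locus were ahead of BTK, a kinase downstream of the receptor (2.94e-04), and VPREB3 (0.00386). With lnc-NKX2-3-1 GapmeR1 5 of 11 passed (45.5%, against 17.6% of all genes), 4 higher and 1 lower. The study already names IGLC3, IGLC6 and IGLC7 as strongly raised for this lncRNA, from these same samples. These shares are therefore not independent evidence about the list. IGLC3 rose by 1.44 on the log2 scale (SE 0.070, adjusted p = 3.85e-08), against 0.44 for IGHV3-15. None passed with GapmeR2, where 0% of all genes did, and 1 of 11 passed between the lnc-RTN4R-1 GapmeRs (9.09%, against 5.92% of all genes). The lambda genes are near copies of each other, so their counts are uncertain.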

How the data were processed

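The authors aligned reads to hg38 with STAR (2.4.2a in the methods) and deposited raw counts per gene for each sample. The labels describe ribosomal depletion and the methods a poly-A kit, which was not settled here. The fourth column was used, since it held 95.15 to 95.41% of stranded assignments. Multimapping reads (6.07 to 7.78%) were not counted, which lowers genes with close copies.

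Gene positions came from GENCODE 44 (56434 of 60619 identifiers matched; 4185 did not). Counts were analysed with edgeR 4.0.16 in R 4.3.3 (TMM, filterByExpr with a minimum count of 10 and total of 15, robust quasi-likelihood F test, Benjamini-Hochberg adjustment over all genes tested, threshold 0.05), in fits of the samples compared, after a test on simulated data. CPM are counts per 1000000 reads of the library size after filtering, multiplied by the TMM factor (0.967 to 1.06). The levels that 3 counts stand for and the opposite-strand values are per 1000000 assigned reads without that factor. Log2 fold changes are the fitted values. DESeq2 1.42.0 was an alternative. A gene was described in full if it had 10 counts in a sample. Assigned depth was 14627110 to 22750945 reads, so that 3 counts equal 0.132 to 0.205 CPM.

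The methods state that triplicates were run on different days, and samples of 1 replicate number were taken as paired by day, though the labels do not tie a number to a day. Deviations from group means correlated at 0.263 on average between samples of the same number (94 of 109 pairs over 0.1) and at -0.13 otherwise, and 75.7% of the first principal component lay between numbers. The fit with the replicate number as a block is given where it changed a call. No libraries were duplicates. Octamers and heptamers were searched in the hg38 sequence, and shares of RefSeq promoters come from a RefSeq table of hg38. GapmeR sequences come from the study's supplement. The genes and lists were chosen with earlier results of these data known.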

Additional observations from a re-analysis of the deposited data

Results flagged for a closer look

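IGHV5-51 was at 0.113 CPM in NTC replicate 1, far below the other 4 control samples, of which the nearest was at 0.314 CPM. This is 2 reads against 5, 6, 7 and 7, a gap of 3 reads. It was the 1 sample to stand apart in 50 such tests over 10 heavy locus genes and 5 arms, where chance gives about 2.5. IGHV5-78 differed by 0.71 on the log2 scale between the lnc-RTN4R-1 GapmeRs, by the direct test given above.

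The reads on the strand opposite to the heavy locus genes were not used in the comparisons. They came to 1942 in all, of which IGHD held 835 (20 to 63 a sample, 3.84 to 11.8% of both strands) and IGHM 318 (4 to 29 a sample). In 4 of 1344 checks every sample of a group had at least 3 such reads and lay above all 5 controls. Only 38 of the 168 genes had any opposite-strand read, so most checks could not meet this rule. The share over all genes was not computed. Opposite-strand reads of IGHD averaged 2.38 per 1000000 assigned reads with lnc-NKX2-3-1 GapmeR2, where the lowest sample was at 1.97 and the highest control at 1.86. Those of the pseudogene IGHVII-78-1 averaged 0.214 with lnc-NKX2-3-1 GapmeR1 (lowest 0.177, highest control 0.161). Those of IGHV7-81 averaged 0.261 with lnc-NKX2-3-1 GapmeR1 (lowest 0.222) and 0.337 with lnc-RTN4R-1 GapmeR1 (lowest 0.264), against at most 0.187 in the controls. These differences were not tested, and leakage between strands was not separated from antisense transcripts.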

How the results depend on the processing

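Of the single-gene values followed under all alternatives (IGHV3-15, IGHD and IGHV5-78 where they stood out), none changed its sign. Over all 122 fold changes of heavy locus genes the replicate block turned the sign of 9, none of them called in either fit, with sizes of at most 0.138 without and 0.171 with the block on the log2 scale. Among these were IGHV5-78 with lnc-ASTN1-1 GapmeR1 (0.0066 to -0.0091) and IGHD with its GapmeR2 (0.030 to -0.018). Of 68 alternative counts of calls 54 stayed within 1.5 times the reported count. Among the 10 groups (2 calls) the count was 4 with DESeq2, 5 with no low-count filter and 5 with the replicate block. For pooled lnc-NKX2-3-1 GapmeRs (0 calls) it was 2 in one fit of all samples, which called IGHV3-15 (adjusted p = 0.00229) and IGHD (0.0323), and for pooled lnc-TIMM21-5 GapmeRs (0 calls) it was 1 with the replicate block. Over the 8 single GapmeRs (2 calls) it was 5 with DESeq2, 4 with no low-count filter, 10 with the replicate block, 4 with replicates 1 and 2 only and 1 with NTC as the only controls, where IGHV3-15 with lnc-NKX2-3-1 GapmeR1 had an adjusted p of 0.0609. Over the 4 comparisons of GapmeR1 with GapmeR2 (1 call) it was 2 with DESeq2, 6 with the replicate block, 2 with replicates 1 and 2 only and 2 in one fit of all samples. The cause of these changes was not tested.

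Leaving out 1 sample at a time gave 1 to 3 calls among the 10 groups, 0 to 3 over the single GapmeRs, 0 to 1 between GapmeRs and 0 to 0 in the pooled comparisons and between NTC and medium. IGHD among the 10 groups had an adjusted p of 0.0718 with replicates 1 and 2 only. IGHV3-15 with lnc-NKX2-3-1 GapmeR2 had an adjusted p of 0.0346 with DESeq2 and 0.0255 with no low-count filter, and with lnc-TIMM21-5 GapmeR1 0.0178 and 0.00831. Of 76 alternatives for single genes 66 kept their side of the threshold. All but 4 genes had under 100 reads in every sample.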

Other observations

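Genes that lie within the locus but are not heavy chain segments were also read. The microRNA genes MIR4538 and MIR4539 reached a mean of 1.39 and 0.955 CPM over the 27 samples, and the pseudogene HOMER2P1 reached 2.04 CPM. MIR4538 and MIR4539 lie between IGHM and the J cluster, where the mu transcripts are spliced. On the opposite strand, reads were also found at V segments with almost none in their own direction. They came to 124 at IGHV4-55, 78 at IGHV7-56 and 68 at IGHVII-78-1, pseudogenes that had no read in their own direction, and to 100 at IGHV7-81, which had 2, in all 27 samples together.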
